A study of Mus musculus with 6 samples.

Results

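Apolipoproteins are the protein components of lipoproteins, the particles that carry triglyceride and cholesterol in blood, and the liver secretes most of them. The transcripts of 10 of their genes were examined here, out of 24411 gene symbols with a deposited count: Apoa1, Apoa2, Apoa4, Apoa5, Apob, Apoc1, Apoc3, Apoe, Apoh and Apom. They were chosen by symbol, as apolipoproteins secreted by the liver, with earlier results of these data known. All 10 were present and all 10 passed the filter on low counts, among 5945 genes that did.

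Apob is the large structural protein around which the liver builds very-low-density lipoprotein, and each such particle holds a single copy of it. Apoa1 and Apoa2 are the main proteins of high-density lipoprotein, which takes up cholesterol from cells. The smaller apolipoproteins move between particles and steer their fate: Apoc proteins and Apoa5 act on the lipolysis of triglyceride, and Apoe is the ligand by which remnants are taken up by receptors.

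The livers came from mice at postnatal day 19 and were of 2 genotypes, p62+/+ (wild type, 3 mice) and p62S351E/+ (3 mice). p62, encoded by Sqstm1, is an autophagy receptor that binds KEAP1, the inhibitor of the transcription factor NRF2, and p62S351E/+ mice have 1 allele in which a serine of the KEAP1-binding region is exchanged for glutamate to mimic its phosphorylation. The allele was made by prime editing in embryonic stem cells of the line RENKA4, which derives from C57BL/6N, and the heterozygotes descend by in vitro fertilization from a single male chimera, so that the edited allele stands for 1 founder. Total RNA was depleted of ribosomal RNA, sequenced and counted per gene, and neither sex, litter nor preparation batch was given in the labels. The question put to these libraries was which liver transcripts differ between mice with the phosphomimetic allele and their wild-type counterparts.

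Estimated counts summed to between 8696712 and 10341622 per library, but only 134911 to 315436 of them fell outside Rn45s, Lars2 and Mir6236, and this smaller number limits the precision of every value. The 10 hepatocyte markers, Alb and Ttr among them, were all detected in all 6 libraries, with summed counts of 10602 to 25927. Brain transcripts did not follow the genotype. The 14 brain markers had summed counts of 2530 to 2908 in the p62+/+ mice and 2661 in p62S351E/+ mouse 3, but 47 and 39 in p62S351E/+ mice 1 and 2, in which 9 and 7 of the 14, Snap25 and Gfap among them, had 0 counts. Because p62S351E/+ mouse 3 thus stood apart from the other mice of its genotype, the calls below are also given without it and without mice 1 and 2. Sqstm1 itself was counted 97, 94 and 100 times in the p62+/+ mice and 55, 77 and 116 times in the p62S351E/+ mice. Its normalized counts, which take library size into account, were 77.8, 73.0 and 86.4 against 104.7, 97.0 and 89.9. They were higher in every p62S351E/+ mouse than in every p62+/+ mouse. The log2 fold change of 0.30 was small and did not pass the test (edgeR adjusted p = 0.4985). Counts per gene cannot show the edited codon. The labels do not say whether the mice of a genotype were littermates, and p-values measure only the spread between these 6 mice.

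The genotypes were first compared over all 10 genes. A gene was called when edgeR's quasi-likelihood test gave both an absolute log2 fold change over 1 and a p, adjusted by Benjamini-Hochberg over the 5945 genes, under 0.05. None of the 10 apolipoproteins was called, whereas 0.841% of all genes tested were called higher and 0.0841% lower in p62S351E/+ livers. At an unadjusted edgeR p below 0.05 there were 4 of the 10 (Apoa4, Apob, Apoc1 and Apoh), against 866 of the 5945 genes. Of the other tools, DESeq2 on the same genes and limma-voom each called 1, Apob. Over all 5945 genes, that DESeq2 fit called 93 higher and 15 lower, and limma-voom 131 higher and 12 lower. The direction was uneven: 9 of the 10 had a log2 fold change above 0, and only Apoa1 lay below it. The median was 0.51, against -0.03 for all genes tested. In 5 of the 10 the normalized counts of all p62S351E/+ mice exceeded those of all p62+/+ mice, and in none did they all lie below. Among all genes tested, 12.0% had non-overlapping groups with p62S351E/+ higher and 14.7% with p62S351E/+ lower. These directions depend on the scaling. Normalized counts here use TMM factors, and with library size alone the median of all genes moved to -0.68 and 6 genes with positive values (Apoa2, Apoa5, Apoc1, Apoc3, Apoe and Apom) turned negative. Relative to that shifted median, Apoa1 stood at about the median of all genes (-0.72) and the other 9 above it. The directions also depended on the libraries with few brain transcripts. Without p62S351E/+ mice 1 and 2, Apoa1, Apoc3, Apom and Apoa2 had log2 fold changes of -0.25, -0.25, -0.39 and 0.03. With the summed brain markers as a covariate they had -0.27, -0.28, -0.41 and 0.01. The remaining members stayed above 0 in both fits. In bulk liver RNA, a change in the number of hepatocytes and a change in RNA per hepatocyte cannot be told apart.

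**Figure D1:**
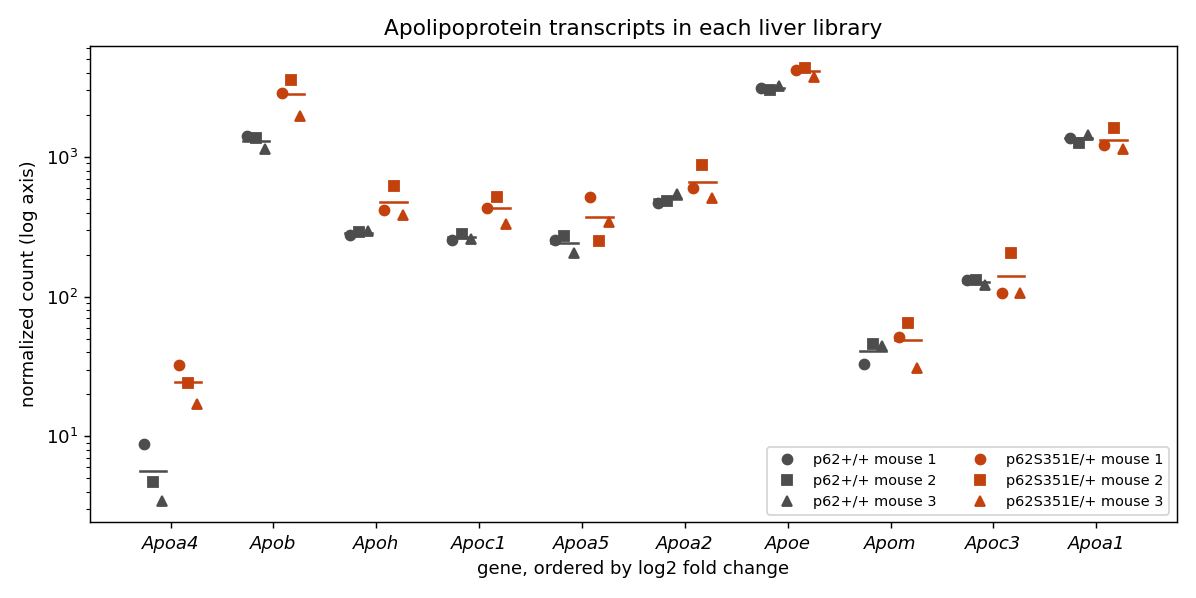
Normalized counts (log axis) of the 10 apolipoprotein genes in each library, with grey symbols for the 3 p62+/+ mice, orange symbols for the 3 p62S351E/+ mice, symbol shape for the mouse number and bars for group means. The groups are separate for Apoa4, Apob, Apoh, Apoc1 and Apoe and overlap for the other 5 genes, and p62S351E/+ mouse 3 has the lowest orange value in 8 of the 10.

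Apob combined a high count with the second largest of the 10 fold changes. Its normalized counts were 1419, 1376 and 1142 in the p62+/+ mice and 2898, 3574 and 1963 in the p62S351E/+ mice. Every p62S351E/+ mouse lay above every p62+/+ mouse, with mouse 3 closest to them. The mean ratio was 2.14, and the log2 fold change was 1.10 (SE 0.27, 95% interval 0.49 to 1.71, edgeR adjusted p = 0.121), so that Apob was not called with all 6 mice. Apob was called in 3 of 20 settings. These were limma-voom (adjusted p = 0.0206), DESeq2 on the genes past the filter (adjusted p = 0.00471) and edgeR without p62S351E/+ mouse 3 (log2 fold change 1.30, edgeR adjusted p = 0.000595). The filtered DESeq2 fit was added after the data were seen, and the default DESeq2 Wald test did not call Apob (adjusted p = 0.144). Against p62S351E/+ mouse 3 alone, the library with brain transcripts like those of the wild type, Apob still differed at an edgeR adjusted p of 0.0457, but by a log2 fold change of only 0.59, under the limit for a call. That fit assumes that the lone mouse varies as the p62+/+ mice do. With the summed brain markers as a covariate, the log2 fold change was 0.58 (edgeR adjusted p = 0.699), and the part of the brain transcripts in the result was not tested otherwise. With library size alone it was 0.35 (edgeR adjusted p = 0.531), against a median of -0.68 for all genes.

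Apoa4, a component of high-density lipoprotein and chylomicrons that is made in gut and liver, had the largest fold change and by far the lowest level. It was counted 11, 6 and 4 times in the p62+/+ mice and 17, 19 and 22 times in the p62S351E/+ mice, although p62S351E/+ mouse 1 had the shallowest library. The p62+/+ counts of 6 and 4 lay under the filter's minimum of 10, so Apoa4 passed the filter through the p62S351E/+ mice. A gene as low in both genotypes would have been left out, and its difference is not independent of the filter. It was called in 1 of 19 settings and was not tested over genes with at least 10 counts in every library. The normalized counts of 8.83, 4.66 and 3.45 against 32.4, 23.9 and 17.0 did not overlap. The log2 fold change was 2.07 (SE 0.43, 95% interval 1.08 to 3.05, edgeR adjusted p = 0.0814), and without p62S351E/+ mouse 3 it was 2.28 (edgeR adjusted p = 0.00223) and Apoa4 was called. Against mouse 3 alone it was 1.58 (edgeR adjusted p = 0.181). The 10 intestinal markers had summed counts of 2 to 9 per library and 8 or 9 of them were at 0 in each, with no difference in level between genotypes beyond a few counts. By Pearson correlation of log2 normalized counts over the 6 libraries, the genes most like Apoa4 were Smg1 (r = 0.99), Sqrdl (0.98) and Kpnb1 (0.98), out of 2509 genes compared. All 6 points share the 2 genotypes and the depth of their libraries, and these r are a description.

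Apoa1, the main protein of high-density lipoprotein, did not follow. Its normalized counts were 1371, 1264 and 1442 in the p62+/+ mice and 1213, 1608 and 1137 in the p62S351E/+ mice. The groups overlapped, with the highest and the lowest value both in p62S351E/+ mice. The log2 fold change was -0.04 (SE 0.22, 95% interval -0.55 to 0.46, edgeR adjusted p = 0.938), which leaves room for a change of either sign but not for the size seen in Apob. Apoa2, the second protein of high-density lipoprotein, had 467, 484 and 543 against 596, 879 and 506. Its groups overlapped through p62S351E/+ mouse 3, and the log2 fold change of 0.41 (SE 0.25, 95% interval -0.17 to 0.99) did not pass the test (edgeR adjusted p = 0.475). Apom, which carries sphingosine 1-phosphate on high-density lipoprotein, was counted only 27 to 59 times per library. Its normalized counts were 32.9, 45.8 and 44.0 against 51.4, 64.3 and 31.0, and they overlapped. The log2 fold change of 0.25 (95% interval -0.44 to 0.93, edgeR adjusted p = 0.690) turned to -0.39 against p62S351E/+ mouse 3 alone.

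**Figure D2:**
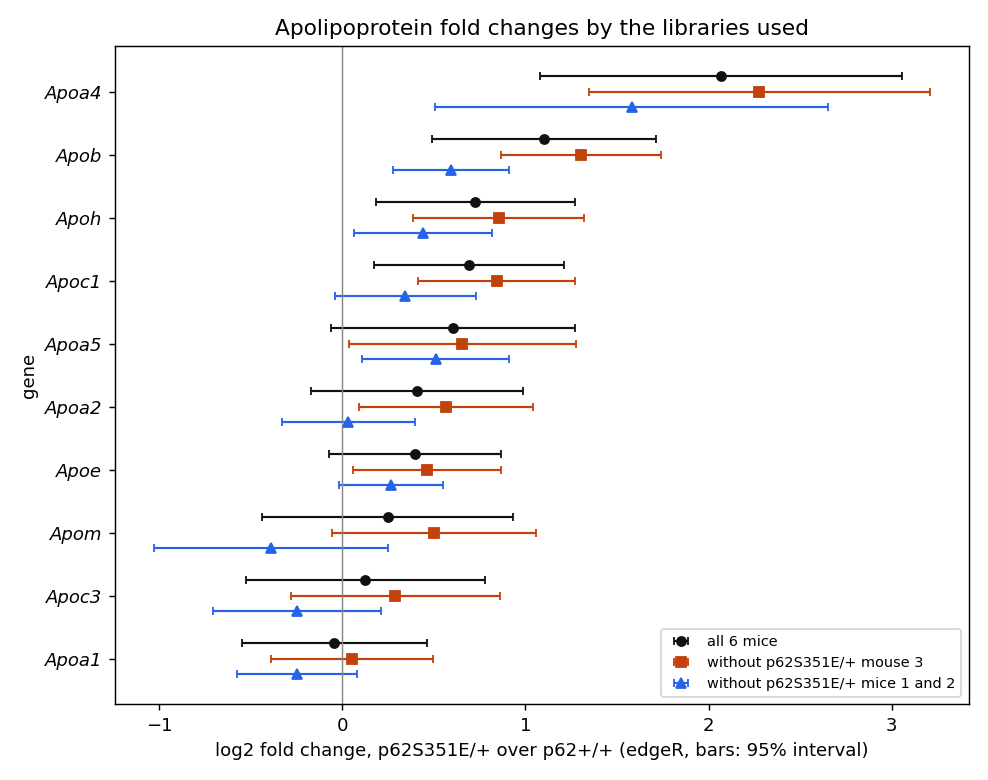
Log2 fold changes of p62S351E/+ over p62+/+ with 95% intervals (edgeR) for each apolipoprotein, with all 6 mice (black circles), without p62S351E/+ mouse 3 (orange squares) and without p62S351E/+ mice 1 and 2 (blue triangles). Apob moves from 1.30 without mouse 3 to 0.59 without mice 1 and 2, and for all 10 genes the orange value is above the blue one.

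Among the small exchangeable apolipoproteins, Apoc1 and Apoe were separated between genotypes and Apoc3 was not. Apoc1, which inhibits the uptake of remnants and lipoprotein lipase, had normalized counts of 255, 280 and 260 in the p62+/+ mice and 430, 520 and 334 in the p62S351E/+ mice. These did not overlap. The log2 fold change was 0.69 (SE 0.23, 95% interval 0.17 to 1.21, edgeR adjusted p = 0.242). Apoe had the highest level of the 10 genes, with 3136, 3010 and 3230 against 4229, 4373 and 3727, again without overlap. Its log2 fold change of 0.40 (SE 0.21, 95% interval -0.07 to 0.86, edgeR adjusted p = 0.412) was small. Astrocytes are also known to make Apoe, and the highest values stood in p62S351E/+ mice 1 and 2, the libraries nearly without brain transcripts. Macrophages are known to make Apoe too, and the summed normalized counts of 12 macrophage markers were also higher in every p62S351E/+ mouse, at 149, 119 and 146 in the p62+/+ mice and 181, 176 and 187 in the p62S351E/+ mice. Those of 6 erythroid markers were lower, at 136 to 195 against 56.2 to 133. The part of astrocytes, macrophages or erythroid cells in the Apoe values was not tested. Apoc3, an inhibitor of lipoprotein lipase, had 131, 131 and 122 against 107, 205 and 107. Mouse 2 lay above and mice 1 and 3 below the wild-type range, and the log2 fold change was 0.13 (95% interval -0.53 to 0.78, edgeR adjusted p = 0.846).

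Apoa5, an activator of triglyceride lipolysis, had its own order among the p62S351E/+ mice. Its normalized counts were 253, 272 and 204 in the p62+/+ mice and 516, 249 and 343 in the p62S351E/+ mice. Mice 1 and 3 were above and mouse 2 within the wild-type range, and in no other of the 10 genes was mouse 2 the lowest of its genotype. The log2 fold change was 0.60 (SE 0.29, 95% interval -0.06 to 1.27, edgeR adjusted p = 0.375). Apoh, a phospholipid-binding plasma protein also called beta-2-glycoprotein I, had 275, 291 and 293 against 419, 616 and 386, with no overlap and a log2 fold change of 0.73 (SE 0.24, 95% interval 0.18 to 1.27, edgeR adjusted p = 0.241), which was 0.04 with library size alone. Without p62S351E/+ mouse 3, where 5.21% of all genes tested were called higher, Apoa4 and Apob were the called members, and Apoc1 (log2 fold change 0.84, edgeR adjusted p = 0.00838) and Apoh (0.85, edgeR adjusted p = 0.0125) passed the adjusted p but not the fold. Without p62S351E/+ mice 1 and 2, where 0.949% of genes were called higher, no member was called. Between these fits, the fold changes of all 10 genes were larger without mouse 3, and the difference between them was not tested.

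A ratio of 2 genes within a library does not depend on scaling. The Apob count was 1.04, 1.09 and 0.792 times the Apoa1 count in the p62+/+ mice and 2.39, 2.22 and 1.73 times in the p62S351E/+ mice. Apob and Apoa1 were thus counted about equally often in the wild type, and in each p62S351E/+ mouse, mouse 3 included, Apob had clearly more counts. The ratio was 2.17 times higher, from 0.972 ± 0.158 to 2.11 ± 0.345 (SD, n = 3 each). In an exact two-sided permutation test over the 20 possible assignments of mice its p was 0.1, the smallest that 3 against 3 allows. Without any 1 mouse the ratio stayed between 1.99 and 2.37 times, and it was 2.37 without p62S351E/+ mouse 3. Of the 9 ratios to Apoa1, 6 (those of Apoa2, Apoa4, Apob, Apoc1, Apoe and Apoh) were higher in every p62S351E/+ mouse than in every p62+/+ mouse, and those of Apoa5, Apoc3 and Apom overlapped. The 9 ratios share their denominator and are not independent. Apoa1 had the lowest log2 fold change of the apolipoproteins examined (-0.04), so ratios to it lean upward by construction. The log2 fold change of Apob was among the largest (1.10), and both values came from these same counts. The permutation p of the Apob to Apoa1 ratio and its range without any 1 mouse are therefore descriptions and not an independent test. Taken over all other tested genes, 14.0% had a ratio to Apoa1 that was higher without overlap. The relation of Apob to Apoe, which differed by 1.61 times (0.452, 0.457 and 0.354 against 0.685, 0.817 and 0.527), did not overlap either (exact permutation p = 0.1).

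**Figure D3:**
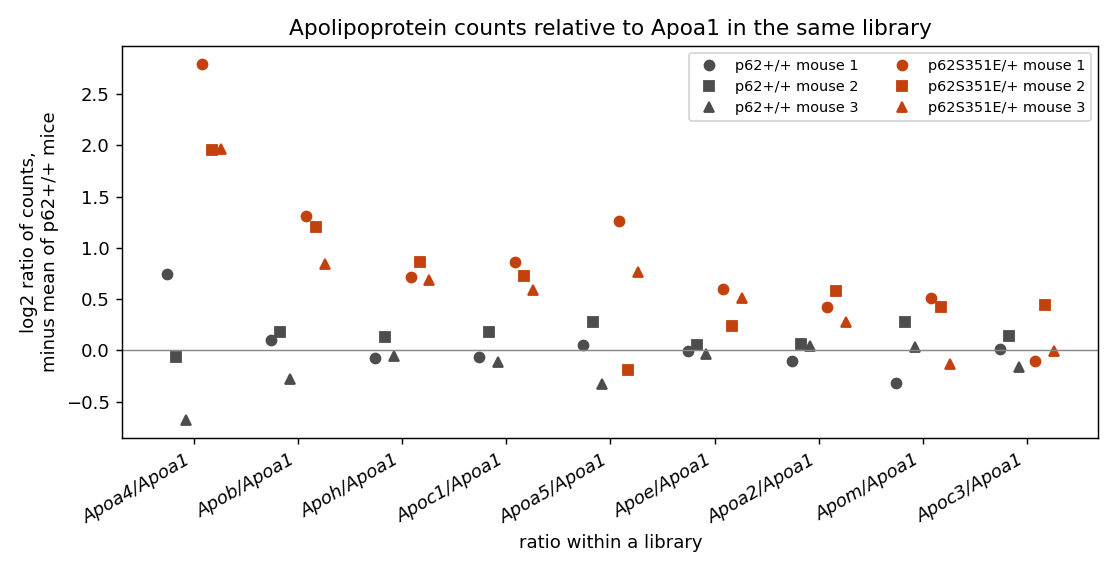
Log2 ratio of each apolipoprotein's count to the Apoa1 count of the same library, relative to the mean of the p62+/+ mice, with grey symbols for p62+/+ and orange symbols for p62S351E/+ mice. For Apob all 3 orange points lie above all grey points, whereas for Apoa5, Apoc3 and Apom the genotypes overlap.

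Albumin, the most abundant secreted product of hepatocytes, gives another reference. The ratio of Apob to Alb overlapped between genotypes, at 0.228, 0.240 and 0.177 against 0.298, 0.218 and 0.300 (exact permutation p = 0.3). Apoa1 per Alb was lower in each p62S351E/+ mouse, at 0.220, 0.221 and 0.223 against 0.125, 0.0981 and 0.174 (exact permutation p = 0.1, the smallest possible). Alb had normalized counts of 6236, 5728 and 6452 in the p62+/+ mice and 9713, 16390 and 6542 in the p62S351E/+ mice (log2 fold change 0.83, edgeR adjusted p = 0.320), so that p62S351E/+ mouse 2 was far above the others. Relative to Alb, therefore, Apob was not separated and Apoa1 was low, while relative to Apoa1, Apob was high.

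The makeup of the apolipoprotein counts shifted between Apoa1 and Apob. Apoa1 made up 18.7 ± 1.07% of the counts of the 10 genes in p62+/+ livers and 12.7 ± 0.996% in p62S351E/+ livers, and Apob 18.1 ± 2.07% and 26.7 ± 3.37% (SD, n = 3 each). Neither pair overlapped. The largest part, Apoe, was 43.0 ± 1.19% and 40.0 ± 3.75% and overlapped. Apoa4 was the remaining gene whose shares did not overlap, at 0.0775 ± 0.0379% and 0.235 ± 0.0636%. Since shares add to a whole, a high share of Apob lowers the others. Summed, the 10 genes took 3.08%, 3.08% and 3.11% of the counts outside the 3 dominant genes in the p62+/+ mice and 4.08%, 4.15% and 3.50% in the p62S351E/+ mice, a ratio of 1.27 between the means. Relative to all counts the ratio was 0.878 and relative to the hepatocyte markers 0.999, both with overlap.

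Levels were compared between genes after division by the length of the principal transcript. In p62+/+ livers the normalized count per kilobase was highest for Apoe (2220 ± 78.4), followed by Apoa1 (1313 ± 86.5), Apoa2 (961 ± 77.4) and Apoc1 (498 ± 25.0). Apoc3 (243 ± 10.1) and Apoh (241 ± 8.13) overlapped, as did Apoa5 (96.5 ± 13.9) and Apob (94.2 ± 10.7), and Apom (40.4 ± 6.91) and Apoa4 (3.11 ± 1.55) came last. The Apob transcript is the longest of the 10, at 13934 bases, so that its high count stands for a modest level per length. In p62S351E/+ livers Apoe (2919 ± 241) stayed first and Apoa4 (13.5 ± 4.23) last. Apoa1 (1275 ± 244) and Apoa2 (1275 ± 376) were then level with each other, and Apob (202 ± 58.1) overlapped Apoc3 (266 ± 108) above it and Apoa5 (147 ± 53.8) below it.

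Several of these genes are neighbours in the genome. On chromosome 9 of GRCm38, Apoa1 (chr9:46228580-46230466, plus strand), Apoc3 (chr9:46232933-46235636, minus), Apoa4 (chr9:46240696-46243459, plus) and Apoa5 (chr9:46268633-46271919, plus) lie within 43340 bases. Across this cluster the fold changes ran from the smallest of the group to the largest, with log2 values of -0.04 for Apoa1, 0.13 for Apoc3, 2.07 for Apoa4 and 0.60 for Apoa5. The ratio of Apoa4 to its neighbour Apoc3 was 0.0675, 0.0355 and 0.0284 in the p62+/+ mice and 0.304, 0.117 and 0.159 in the p62S351E/+ mice, without overlap (exact permutation p = 0.1, the smallest possible). Annotated antisense transcripts overlap Apoa4 and Apoa5, and since it is not stated whether counting used strand, their reads cannot be told apart from those of these genes. A second cluster, within 27610 bases of chromosome 7 and on the minus strand throughout, holds Apoc2, Apoc4, Apoc1 and Apoe. Its log2 fold changes were 1.61 for Apoc2, 0.74 for Apoc4, 0.69 for Apoc1 and 0.40 for Apoe, and none was called. Apoc2 and Apoc4 are not among the 10 genes, and Apoc4 was picked out for its position after its values had been seen. The ratio of Apoc1 to Apoe overlapped between genotypes (exact permutation p = 0.2). Of the other genes, Apoa2 lies at chr1:171225054-171226379 (plus), Apob at chr12:7977648-8016835 (plus, 29 exons in the principal transcript), Apoh at chr11:108343354-108414396 (plus) and Apom at chr17:35128997-35132050 (minus).

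The stretches before the start of Apob, Apoa1 and Apoa4 are shown because these genes mark the extremes of the comparison. They come from RefSeq for GRCm38.p6, are written in 5′ to 3′ direction on the plus strand and end at the last base before the annotated gene. Capitals mark a TATA box (TATAAA), which begins 31 bases before the start of Apob and was found in neither of the other stretches.
Apob, chr12:7977427-7977647: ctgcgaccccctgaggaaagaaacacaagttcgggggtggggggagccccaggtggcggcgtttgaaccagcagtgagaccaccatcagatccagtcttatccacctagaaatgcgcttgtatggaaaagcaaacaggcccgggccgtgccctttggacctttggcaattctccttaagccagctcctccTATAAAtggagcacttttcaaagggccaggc
Apoa1, chr9:46228380-46228579: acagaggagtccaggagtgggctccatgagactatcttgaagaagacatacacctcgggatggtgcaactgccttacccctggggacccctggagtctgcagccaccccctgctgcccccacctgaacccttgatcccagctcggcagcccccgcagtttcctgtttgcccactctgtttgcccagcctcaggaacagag
Apoa4, chr9:46240594-46240695: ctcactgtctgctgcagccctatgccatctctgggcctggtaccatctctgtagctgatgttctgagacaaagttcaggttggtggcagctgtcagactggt

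A search for 4 motifs on both strands used windows of 300 bases around RefSeq start sites, and 12 windows belonged to 8 of the 10 genes, with none for Apoc1 or Apoc3. TATAAA occurred in windows of Apoa2, Apoa5, Apob and Apoe, and in 13.6% of all 32851 windows. The nuclear receptor half-site AGGTCA occurred in windows of Apoa2 and Apoh, and in 16.3% of all. No window of the 8 genes held the antioxidant response element TGACNNNGC, which NRF2 binds and 12.4% of all windows held, or the exact HNF4A core CAAAGTCCA (0.475% of all). The genes with a TATA box thus included Apob and Apoe, whose groups did not overlap, and Apoa2 and Apoa5, whose groups did. A match is a run of letters and not evidence of binding, and a motif outside the window would not be found. Only these spellings were searched, so a site spelled otherwise would be missed, and the lack of a match does not show the lack of a site.

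Apolipoproteins work with proteins that assemble, remodel and take up the particles, and 5 lists of such genes were read from the same fit. Beside the calls of other tools below, limma-voom called 131 higher and 12 lower over all genes tested. DESeq2 on the same genes called 93 and 15. Beside the counts at an unadjusted edgeR p below 0.05, all genes tested had 866 of 5945. Of the 20 other apolipoproteins and apolipoprotein-like genes, 11 were tested and none was called by edgeR, 4 had an unadjusted p below 0.05, limma-voom called 1, and the median log2 fold change was 0.38. The largest values were those of Apoc2, the cofactor of lipoprotein lipase (1.61, edgeR adjusted p = 0.0759), Apod (-1.41) and Apol7a (1.41). Apoc2 was counted 18, 10 and 10 times in the p62+/+ mice and 16, 30 and 35 times in the p62S351E/+ mice, and its normalized counts did not overlap. Apod, which glia are known to express, was at 0 counts in p62S351E/+ mice 1 and 2 and at 22 to 28 counts in the 4 libraries with brain transcripts.

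Genes that load lipid onto Apob or edit its mRNA had 12 of 17 tested and none called by edgeR, with 2 at an unadjusted p below 0.05, 1 called by limma-voom, 1 by DESeq2 on the same genes, and a median of 0.25. P4hb, the subunit that keeps the triglyceride transfer protein Mttp soluble, had the largest value (1.27, edgeR adjusted p = 0.120), and Surf4, the cargo receptor that exports lipoproteins from the endoplasmic reticulum, had 0.92 (edgeR adjusted p = 0.133). P4hb, like Apob, was called without p62S351E/+ mouse 3 (1.52, edgeR adjusted p = 0.000476), and against mouse 3 alone it was 0.60 (edgeR adjusted p = 0.207). Sort1, a sorting receptor, had -1.07 (edgeR adjusted p = 0.352), with 4 and 9 counts in p62S351E/+ mice 1 and 2 and 34 to 56 in the other libraries.

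The called genes of the 5 lists were Abcg5 and Abcg8, the subunits of the transporter that exports sterols into bile. They stood among remodelling enzymes and lipid exporters, of which 12 of 15 were tested, 2 were called higher and none lower. Over all genes tested, 0.841% were called higher and 0.0841% lower. Of the 12, 9 had a log2 fold change above 0 and 3 below, 5 had an unadjusted p below 0.05, and the median was 0.34. Abcg5 had normalized counts of 20.1, 32.6 and 20.7 in the p62+/+ mice and 70.5, 70.5 and 71.3 in the p62S351E/+ mice (log2 fold change 1.53, SE 0.25, edgeR adjusted p = 0.0346). Abcg8 had 18.5, 14.7 and 25.9 against 66.6, 64.3 and 55.8 (1.65, SE 0.26, edgeR adjusted p = 0.0312). The genes are transcribed away from each other from start sites 110 bases apart on chromosome 17. Both were called without p62S351E/+ mouse 3 (1.52 and 1.73) as well as without mice 1 and 2 (1.54 and 1.52). Neither was called with library size alone, where they had 0.89 and 0.96, or with any 1 of the other mice left out. Both calls were also lost with the brain markers as a covariate (1.55 and 1.49, edgeR adjusted p = 0.0686 and 0.0910), with Xist as a covariate and with the replicate block (edgeR adjusted p = 0.134 and 0.138), and that of Abcg5 when scaled to the counts outside the 3 dominant genes.

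Among lipoprotein receptors and their regulators, 9 of 12 were tested and edgeR, limma-voom and DESeq2 called none, with 2 at an unadjusted edgeR p below 0.05 and a median of 0.09. Scarb1, the receptor for high-density lipoprotein, had a log2 fold change of 0.78 (edgeR adjusted p = 0.307) and Mylip, a ubiquitin ligase that acts on lipoprotein receptors, -0.49 (edgeR adjusted p = 0.649). Of 21 transcription factors and cofactors that act on apolipoprotein genes, 19 were tested, edgeR called none, 7 had an unadjusted p below 0.05, limma-voom called 2, and the median was 0.09. Among them were the nuclear receptors Nr5a2 (log2 fold change 1.38, edgeR adjusted p = 0.0878) and Nr0b2 (1.22, edgeR adjusted p = 0.230), each counted fewer than 30 times in every library.

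**Figure D4:**
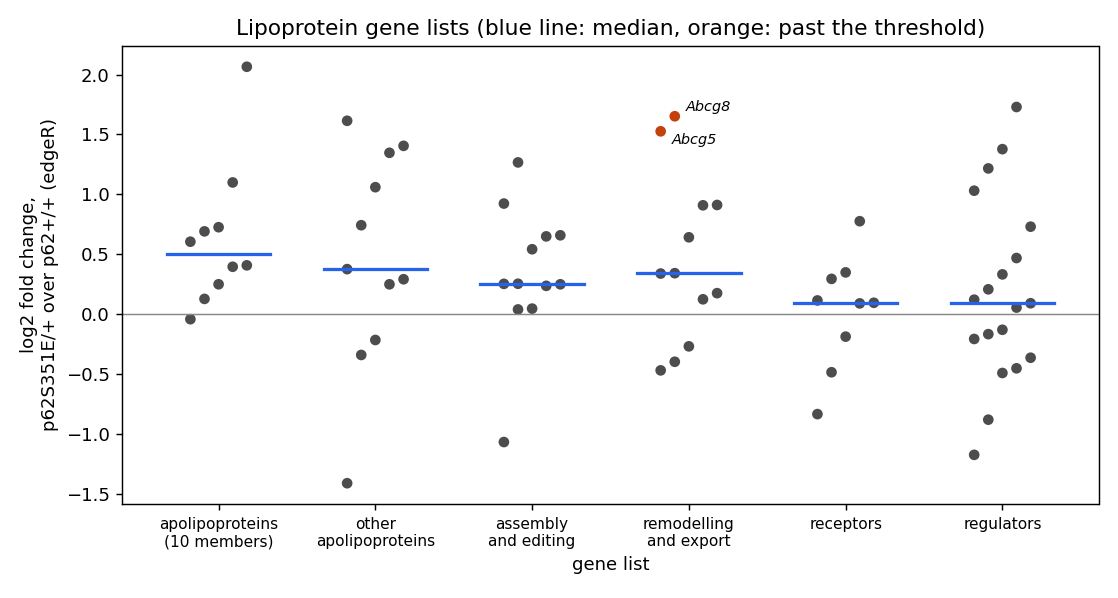
Log2 fold change of each tested gene (edgeR, p62S351E/+ over p62+/+) in the 10 apolipoproteins and 5 lists of lipoprotein genes, with blue lines for the median of each list and orange points for genes past the threshold. Abcg5 and Abcg8 are the called genes, and the median is highest for the 10 apolipoproteins (0.51) and lowest for the regulators and the receptors (both 0.09).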

How the data were processed

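Per the labels and the methods of the study, ribosomal RNA was removed from total liver RNA and single-end reads were sequenced. The authors trimmed the reads with Trim Galore, mapped them to mm10 with STAR, estimated gene counts with RSEM and deposited these expected counts without normalization, with tool versions, annotation and strand setting not given in the sources used here. RSEM divides reads that match several genes, and 1 of the 60 values of the 10 genes was not whole. Every value column matched a sample (0 columns did not).

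Expected counts were rounded and analysed in R 4.3.3 with edgeR 4.0.16 (filterByExpr with a minimum count of 10, TMM factors, robust dispersions, quasi-likelihood test with legacy set to FALSE), with Benjamini-Hochberg adjustment over 5945 genes. Calls needed an absolute log2 fold change over 1 and an adjusted p under 0.05. Normalized counts are counts divided by each library's TMM-adjusted size, itself divided by the geometric mean of these sizes, and SE is the absolute log2 fold change over the square root of F. The alternatives were DESeq2 1.42.0, voom in limma 3.58.1, other scalings and filters, covariates, a replicate block and leaving out mice. DESeq2 on the filtered genes, and the Apob to Apoa1 ratio without each mouse, were added after the data were seen. The test was tested on simulated counts with known changes, at an adjusted p under 0.05 without the limit on the fold change. It recovered 14.6% of genes with a true absolute log2 fold change of 1 and 86.5% of those with 2. Of its 96 calls, 0% were false. A gene that is not called can thus still differ by a log2 fold change of 1.

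The 10 genes and all lists were chosen with earlier results of these data known. Named were the 10 genes, from each list the called genes and the 3 with the largest absolute log2 fold change, and the 3 genes most correlated with Apoa4 at a mean normalized count of at least 20. Of the genes this rule selects, 3 are not reported here. Positions are from GENCODE M21 on GRCm38, the assembly of mm10, and start sites and sequences from RefSeq for GRCm38.p6. Protein and imaging data and the other knock-in line were not used here.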

Additional observations from a re-analysis of the deposited data

How the results depend on the processing

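Over 19 alternatives, 165 of 189 values of the 10 genes kept their direction and their side of the threshold, 4 passed the threshold (Apoa4 without p62S351E/+ mouse 3, and Apob there, by limma-voom and by DESeq2 on the filtered genes) and 20 changed sign, all of genes not called. Where no cause is named it was not tested.

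With library size alone, the log2 fold changes were -0.30 for Apoa2, -0.13 for Apoa5, -0.02 for Apoc1, -0.56 for Apoc3, -0.29 for Apoe, -0.51 for Apom and -0.02 for Scarb1. Apoc3 was -0.07 when scaled to the counts outside Rn45s, Lars2 and Mir6236. Apoc3 and Apom were -0.14 and -0.03 over genes with at least 10 counts in every library, -0.17 and -0.14 with Xist as a covariate, -0.28 and -0.41 with the brain markers as a covariate, and -0.25 and -0.39 without p62S351E/+ mice 1 and 2. Under the last 2 settings Mylip was 0.16 and 0.18. Leaving out 1 mouse moved Apoa1 between -0.20 and 0.05, Apoc3 between -0.25 and 0.30 and Apom between 0.00 and 0.50.

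Of the 10 apolipoproteins, 0 were called with all mice, 1 by limma-voom, 1 by DESeq2 on the filtered genes and 0 to 2 without 1 mouse. For all genes, edgeR called 50 higher and 5 lower. These counts were 93 and 15 by DESeq2 on the filtered genes, 131 and 12 by limma-voom, 12 and 2 with library size alone, 79 and 10 without a filter, 27 and 2 with Xist and 30 and 2 with brain markers as a covariate. Only the lower count moved by over 1.5 times with the default DESeq2 test (8), the legacy method (8), at least 10 counts in every library (29) and without p62S351E/+ mice 1 and 2 (23). Leaving out 1 mouse gave 16 to 333 higher and 1 to 975 lower, the highest of each without p62S351E/+ mouse 3. All of these fits, those with high and those with low numbers, had 1 mouse fewer than the main fit.

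The other apolipoproteins had 1 call by limma-voom, 1 over genes with at least 10 counts in every library and 0 to 4 without 1 mouse. Assembly and editing genes had 1 by limma-voom, 1 by DESeq2 on the filtered genes and 0 to 3 without 1 mouse. The 2 calls among remodelling genes fell to 1 with the counts outside the 3 dominant genes, and to 0 with library size alone, with Xist or with brain markers as a covariate, and were 0 to 4 without 1 mouse. Receptors had 1 over genes with at least 10 counts in every library. Regulators had 2 by limma-voom, 1 over genes with at least 10 counts in every library, 1 without p62S351E/+ mice 1 and 2 and 0 to 4 without 1 mouse. The summed apolipoprotein share had a ratio of 0.878 over all counts and 0.999 over hepatocyte markers, against 1.27.

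Same-numbered mice did not deviate together (correlations of 0.07, -0.09 and 0.00). These are deviations from means of 3 mice and cannot show whether a number stands for a shared litter or batch, which the labels do not state. With the replicate block, 18 genes were called higher and 1 lower, 0 of the 10 apolipoproteins and 0 remodelling genes. Of the 3 pairs, not every mouse correlated best with its own number.

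Depth limits Apoa4 and Apom most, which had 4 to 22 and 27 to 59 counts per library, and with 3 mice per genotype the 95% intervals of 6 of the 10 genes included 0.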
